A study of Mus musculus with 9 samples.

Results

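Oxidative phosphorylation is carried out by 5 protein complexes of the inner mitochondrial membrane. Their members were taken here as the genes whose pathway annotation in the deposited expression table held the entry Oxidative phosphorylation, or whose name began with mt-, with the vesicular proton pump genes named Atp6v and Atp6ap left out. The rule found 110 of the 21899 genes in the table, of which 97 were encoded in nuclear DNA and 13 in mitochondrial DNA (mtDNA). By complex, the nuclear members were 36 of complex I, 4 of complex II, 9 of complex III, 20 of complex IV and 15 of complex V. The remaining 13 were cytochrome c (Cycs and its testis form Cyct), assembly factors of complex IV (Cox10, Cox11, Cox15, Cox17), pyrophosphatases (Ppa1, Ppa2, Lhpp) and proton pump subunits that the name rule did not remove (Tcirg1, Atp4a, Atp4b, Atp12a). Ndufa4 was counted with complex IV. The mtDNA genes were 7 of complex I, 1 of complex III, 3 of complex IV and 2 of complex V.

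Complexes I and II pass electrons from NADH and succinate to coenzyme Q, complex III passes them to cytochrome c, and complex IV hands them to oxygen. Complexes I, III and IV pump protons, and complex V, the ATP synthase, uses the gradient to make ATP. Complex II alone has no mtDNA-encoded subunit. All the others combine subunits translated in the cytosol with hydrophobic core subunits translated inside mitochondria from RNAs that are cut out of long transcripts of the mtDNA.

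The samples were N2a (Neuro-2a) cells, a mouse neuroblastoma line labelled as a neuroblast cell type, with no drug treatment. Each library was poly(A)-enriched RNA of cells that carried 1 short hairpin RNA: shlucif, directed at luciferase, in 3 control libraries, and shArf1-1 or shArf1-2, directed at Arf1, in 3 libraries each. Arf1 encodes a small GTPase of vesicle coat assembly, and the series was made to ask how its loss changes lipid metabolism. The hairpin plasmids carried puromycin resistance, and nothing in the labels says whether the 3 libraries of a group came from separate cultures, so a p-value measures only the spread between these libraries.

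Library totals ran from 11182479 to 15594615 counts. Arf1, the targeted gene, was at 316 to 328 FPKM (a count scaled for gene length and library total, as deposited) in shlucif, at 127 to 130 in shArf1-1 and at 157 to 171 in shArf1-2, so both hairpins lowered it and shArf1-1 lowered it more. The neuroblast marker list was present in every library, with a summed level of 4007 to 4042 CPM in shlucif (CPM is a gene's count scaled to a fixed library total) and 4627 to 5072 CPM in the Arf1-deficient libraries. Of its 14 genes, 10 rose and 1 fell with each hairpin. So 71.4% were higher, against 33.1% of all genes with shArf1-1 and 30.9% with shArf1-2. The median log2 fold changes of the list were 0.55 and 0.50. Between the hairpins, 7 of the 14 were lower with shArf1-2 and 0 were higher (median log2 fold change -0.17). That is 50% of the list, against 14.4% of all genes that differed between the hairpins. The shlucif libraries also carried RNA of a list of 18 macrophage markers, at a summed 319 to 386 CPM, against 1.28 to 1.91 CPM in the 6 Arf1-deficient libraries. All 16 markers that could be tested were lower with each hairpin, and 7 markers, Spi1, Ctss, Itgam, Aif1, C1qa, C1qb and C1qc, had no count in any Arf1-deficient library. Every comparison with shlucif below therefore sets libraries with that RNA against libraries almost without it, and its part in the results was not tested. The difference of shArf1-2 from shArf1-1 compares means of libraries almost without that RNA, but its error was estimated over all 9 libraries, shlucif included. Levels are relative to all RNA of a library, so in these bulk samples fewer cells of a type and less RNA per cell cannot be told apart.

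Changes were tested with edgeR's quasi-likelihood test on counts of all 9 libraries, with p-values adjusted by Benjamini and Hochberg over the 12448 genes that passed the filter on low counts, and called past an adjusted p of 0.05. Among those genes, 67.5% were called with shArf1-1 against shlucif (33.1% higher, 34.4% lower), 63.4% with shArf1-2 against shlucif (30.9% higher, 32.6% lower) and 14.4% with shArf1-2 against shArf1-1 (6.98% higher, 7.46% lower). Those shares are the background for every count of members. A total of 90 nuclear members and 11 mtDNA genes could be tested. The other 9, Cox6b2, Cox8b, Cox8c, Atp4a, Atp4b, Atp12a, Cyct, mt-Nd4l and mt-Atp8, had at most 12 counts in any library. Both hairpin groups were compared with the same shlucif libraries, so their changes are given side by side and not as separate evidence.

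The summed share of the mtDNA-encoded counts was higher with shArf1-1, and their make-up differed from that of shlucif with both hairpins. No test was made of the summed share, and nearly all of its counts came from part of the mtDNA genes, as given below. They took 0.784% ± 0.068 of all counts in shlucif (SD, n = 3), 1.14% ± 0.15 in shArf1-1 and 0.776% ± 0.15 in shArf1-2. By library the share was 0.734, 0.861 and 0.758% in shlucif, 1.31, 1.03 and 1.08% in shArf1-1, and 0.656, 0.949 and 0.721% in shArf1-2. The 3 shArf1-1 libraries were above the other 6, and shlucif and shArf1-2 overlapped, with shArf1-2 replicate 2 above the other libraries of its group. The nuclear members together took 1.44% ± 0.043 in shlucif, 1.52% ± 0.028 in shArf1-1 and 1.503% ± 0.028 in shArf1-2, so their summed share spanned a much narrower range than that of the mtDNA genes. By library that share was 1.39 to 1.472% in shlucif, 1.4999 to 1.55% in shArf1-1 and 1.478 to 1.53% in shArf1-2. Neither hairpin group overlapped shlucif.

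The 13 mtDNA genes were not counted equally well. When each transcript was split into windows of 100 bases, over 97% of the windows of mt-Co2, mt-Co3, mt-Atp6, mt-Nd3 and mt-Nd4l also occurred in an annotated nuclear copy of mtDNA, and those genes had at most 543 counts in any library. The share was 60.8% for mt-Nd4 and 30.8% for mt-Co1, 3.19% for mt-Nd2, and none was found for mt-Nd1, mt-Nd5, mt-Nd6, mt-Cytb and mt-Atp8. The 7 genes mt-Nd1, mt-Nd2, mt-Nd4, mt-Nd5, mt-Nd6, mt-Cytb and mt-Co1 held nearly all mtDNA counts. Of 10 genes listed as nuclear copies of mtDNA, 9 shared windows with an mtDNA gene and none of those had a row in the expression table, so counts of the copies could not be set beside those of the mtDNA genes. The other, Gm11808, shared no window with an mtDNA gene and is not read as a copy (log2 fold changes -0.41 and -0.28, both called).

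mt-Nd1 encodes a core membrane subunit of complex I and is the first protein gene after the ribosomal RNAs (chrM:2751-3707, plus strand, GRCm38). Its level was 529, 580 and 517 FPKM in shlucif, 1563, 1182 and 1421 FPKM in shArf1-1, and 815, 977 and 898 FPKM in shArf1-2. The 3 groups did not overlap, and shArf1-2 lay between the other two. Its log2 fold change was 1.30 (SE 0.10, edgeR adjusted p = 5.22e-07) with shArf1-1 and 0.66 (SE 0.10, adjusted p = 0.000157) with shArf1-2. The difference between the hairpins was -0.65 on the log2 scale (SE 0.10, adjusted p = 0.00153).

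mt-Cytb encodes cytochrome b, the only mtDNA-encoded subunit of complex III, and lies near the other end of the map (chrM:14145-15288). Its level was 1442, 1639 and 1431 FPKM in shlucif, 3713, 2935 and 3037 FPKM in shArf1-1, and 1659, 2454 and 1839 FPKM in shArf1-2. In FPKM the 3 groups did not overlap, with the shlucif libraries lowest, while on counts scaled by TMM factors shArf1-2 overlapped shlucif. The rise passed the test with shArf1-1 (log2 fold change 1.05, SE 0.17, edgeR adjusted p = 0.00126). With shArf1-2 the log2 fold change was 0.33 (SE 0.16, adjusted p = 0.129). The hairpins differed by -0.72 (SE 0.16, adjusted p = 0.0347), a call that 11 of 21 alternative analyses did not make. It was lost without any 1 library other than shArf1-2 replicate 2 (adjusted p up to 0.107), in the fit of the 6 Arf1-deficient libraries alone (0.0965) and with the replicate number as a block (0.0725).

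mt-Co1 encodes the catalytic subunit of complex IV (chrM:5328-6872) and behaved differently from mt-Nd1 and mt-Cytb. Its level was 1940, 2306 and 2051 FPKM in shlucif, 2038, 1649 and 1589 FPKM in shArf1-1, and 1073, 1623 and 1175 FPKM in shArf1-2. It fell with shArf1-2, where all 3 libraries were below shlucif (log2 fold change -0.77, SE 0.18, edgeR adjusted p = 0.00836). With shArf1-1 the ranges overlapped and the log2 fold change was -0.31 (SE 0.18, adjusted p = 0.17). That change was called by 2 of 21 alternatives, with only the 6 libraries compared and without shArf1-2 replicate 2 (adjusted p down to 0.0049). The difference between the hairpins was -0.47 (SE 0.18, adjusted p = 0.151). It was called by 1 of 21 alternatives, without shArf1-2 replicate 2 (adjusted p = 0.00477).

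Of the other complex I genes of mtDNA, mt-Nd2, mt-Nd4 and mt-Nd5 rose with shArf1-1, and none of them passed the test with shArf1-2. mt-Nd2 was at 470 to 532 FPKM in shlucif and 715 to 1026 FPKM in shArf1-1 (log2 fold change 0.75, SE 0.15, edgeR adjusted p = 0.0043), and at 539 to 700 FPKM in shArf1-2 (0.19, SE 0.15, adjusted p = 0.33). mt-Nd5 was at 624 to 779 FPKM in shlucif, 917 to 1131 in shArf1-1 (0.49, SE 0.15, adjusted p = 0.0248) and 629 to 876 in shArf1-2 (0.02, SE 0.15, adjusted p = 0.932). mt-Nd4 was at 287 to 344, 463 to 616 and 279 to 505 FPKM in the same order (0.70, SE 0.24, adjusted p = 0.0371 with shArf1-1). mt-Nd6, which is read from the opposite strand and whose counts cannot be told from antisense reads where the counting strand is not known, was at 145 to 203, 188 to 300 and 174 to 301 FPKM, and its groups overlapped. The calls for mt-Nd4 and mt-Nd5 were lost in several alternative analyses. mt-Nd5 was not called without shlucif replicate 1 or 3 or shArf1-1 replicate 1 (adjusted p up to 0.0809). mt-Nd4 was not called without any of the shlucif libraries, shArf1-1 replicate 1 or 2, or shArf1-2 replicate 3 (adjusted p up to 0.111), nor with the replicate number as a block (0.0532).

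Of the remaining mtDNA genes, mt-Co2 rose with shArf1-1 (34.1 to 40.6 FPKM in shlucif, 43.6 to 63.4 in shArf1-1, log2 fold change 0.42, SE 0.16) and was lower with shArf1-2 than with shArf1-1 by 0.67 (SE 0.16, edgeR adjusted p = 0.015). The rise of mt-Co2 was not called without shlucif replicate 1 or 3 or shArf1-1 replicate 1 or 2 (adjusted p up to 0.128), nor the hairpin difference without shlucif replicate 1 or shArf1-2 replicate 3 or in the fit of the 6 Arf1-deficient libraries alone (up to 0.0749). mt-Co3 fell with shArf1-2 by 0.26 on the log2 scale (SE 0.11, adjusted p = 0.0405), a call made by 11 of 21 alternatives and lost without shlucif replicate 1 or 2 or shArf1-2 replicate 1 or 3 (up to 0.174). mt-Atp6 (log2 fold changes -0.12 and -0.20) and mt-Nd3 (0.91 and -0.12, on at most 37 counts) did not pass the test with either hairpin. All of those genes are ones whose sequence recurs in nuclear copies. In all, 6 of 11 tested mtDNA genes rose with shArf1-1 and the other 5 did not pass the test, 54.5% called against 67.5% of all genes. The median log2 fold change of the 11 was 0.51 against 0.00 over all genes tested. With shArf1-2, 1 rose and 2 fell, 27.3% called against 63.4% of all genes (median 0.02). Between the hairpins, 3 were lower with shArf1-2, 27.3% called against 14.4% of all genes (median -0.53). The count of 6 became 3 without shlucif replicate 1 or without shArf1-1 replicate 1, the count of 3 called with shArf1-2 became 5 without shArf1-2 replicate 2, and the count of 3 between the hairpins ranged from 1, without shlucif replicate 1 or shArf1-2 replicate 3, to 7, without shArf1-2 replicate 2.

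**Figure D1:**
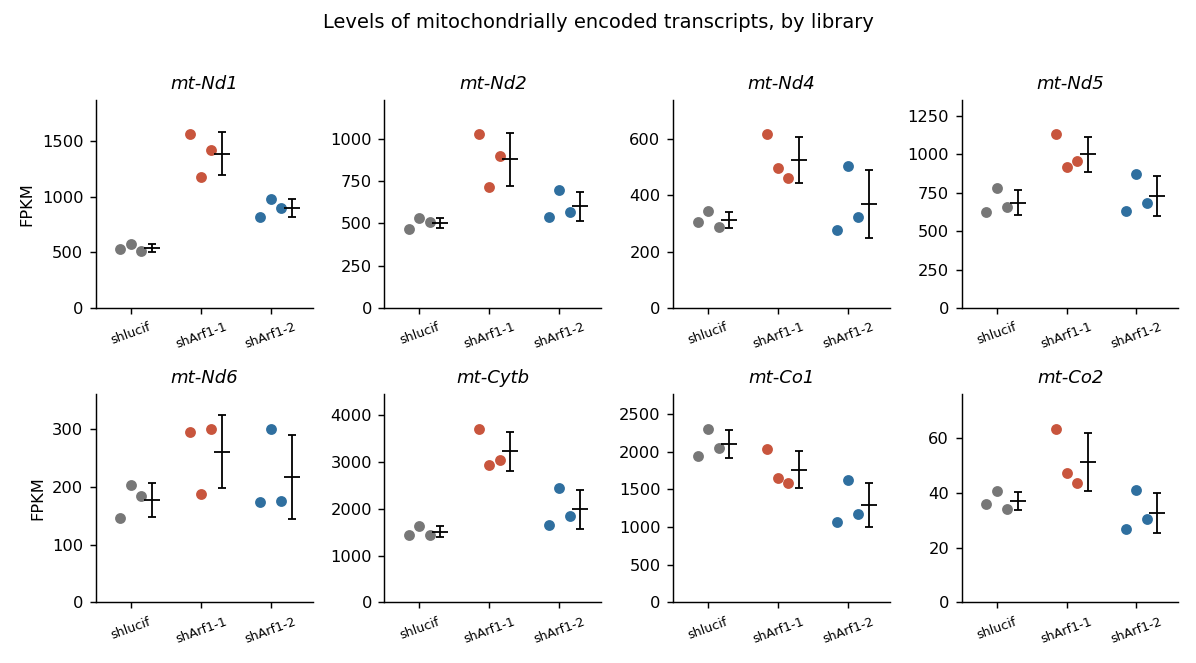
Levels of 8 mtDNA-encoded RNAs in FPKM (vertical axes from 0) in each of the 9 libraries, grouped by hairpin, with the mean and SD of each group (n = 3) as a bar at its right. mt-Nd1 is above shlucif in all 6 Arf1-deficient libraries, while mt-Co1 is below shlucif in the 3 shArf1-2 libraries and overlaps it in shArf1-1.

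The make-up of the mtDNA counts was tighter between replicates than their total. mt-Co1 took 41.4% ± 0.48 of a library's mtDNA counts in shlucif (SD, n = 3), 23.8% ± 1.1 in shArf1-1 and 25.6% ± 0.70 in shArf1-2. mt-Cytb took 22.0% ± 0.47 in shlucif, 32.4% ± 0.27 in shArf1-1 and 29.2% ± 0.33 in shArf1-2, and mt-Nd1 took 6.62% ± 0.24, 11.7% ± 0.81 and 11.2% ± 1.2. The share of mt-Nd5 stayed near that of shlucif, at 15.9% ± 0.50, 16.04% ± 0.27 and 17.2% ± 0.34. Since shares of a whole add up to a fixed sum, ratios of counts within a library are given as well.

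The ratio of mt-Cytb to mt-Co1 counts was 0.550, 0.526 and 0.517 in shlucif, 1.35, 1.32 and 1.42 in shArf1-1, and 1.15, 1.12 and 1.16 in shArf1-2. All 6 Arf1-deficient libraries were above all 3 shlucif libraries, and shArf1-2 was below shArf1-1 without overlap. The ratio of mt-Nd1 to mt-Co1 was 0.156 to 0.169 in shlucif, 0.444 to 0.554 in shArf1-1 and 0.373 to 0.473 in shArf1-2. The ratio of mt-Nd5 to mt-Co1 was 0.378 to 0.399, 0.655 to 0.713 and 0.637 to 0.692, and that of mt-Nd2 to mt-Co1 was 0.155 to 0.167, 0.291 to 0.381 and 0.290 to 0.337. Without mt-Co1 the picture was in the same direction for mt-Nd1 and mt-Cytb, with mt-Nd1 to mt-Nd5 at 0.391 to 0.444, 0.676 to 0.778 and 0.586 to 0.686, and mt-Cytb to mt-Nd5 at 1.32 to 1.45, 1.99 to 2.06 and 1.66 to 1.76. For each of those 6 ratios, the exact permutation test (two-sided, 3 against 3 libraries) of either hairpin against shlucif gave p = 0.1, the smallest the design allows. The ratios do not depend on how libraries were scaled, but how evenly poly(A) enrichment captured each mtDNA RNA was not tested. The 6 ratios were chosen after the levels had been seen.

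**Figure D2:**
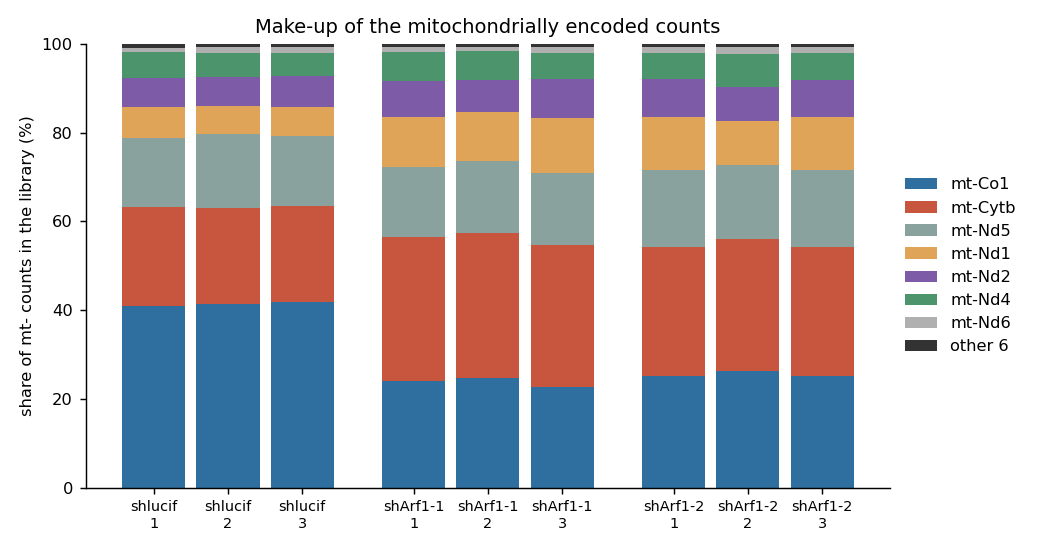
Share of each mtDNA gene in a library's mtDNA-encoded counts, in percent, as stacked bars for the 9 libraries. The segment of mt-Co1 is 40.9 to 41.8% in shlucif and 22.7 to 26.4% in the Arf1-deficient libraries, and those of mt-Cytb and mt-Nd1 are larger there than in shlucif.

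The nuclear members had small median changes and moved in both directions as single genes. With shArf1-1, 34 of the 90 tested rose and 15 fell, which is 54.4% called, below the 67.5% of all genes, and the median log2 fold change was 0.09. With shArf1-2, 19 rose and 16 fell, 38.9% called against 63.4% of all genes, with a median of 0.02. Without shlucif replicate 2 the counts with shArf1-2 were 14 higher and 18 lower, and without shlucif replicate 3 they were 19 and 10. The balance of higher and lower calls also moved with the scaling. With library totals in place of TMM factors, which shifted the median of all genes by 0.05 with shArf1-1 and 0.07 with shArf1-2, the counts became 40 higher and 10 lower with shArf1-1, and 37 higher and 10 lower with shArf1-2. With a gene length offset they were 39 and 12, and 28 and 16. Between the hairpins, 1 member (Tcirg1) was higher with shArf1-2 and 12 were lower, 14.4% called, equal to the share of all genes, and the median was -0.07. By direction, 1.11% of the members were higher and 13.3% lower, against 6.98% and 7.46% of all genes. Without shArf1-1 replicate 1 or shArf1-2 replicate 1 or 2, 8 members were called.

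**Figure D3:**
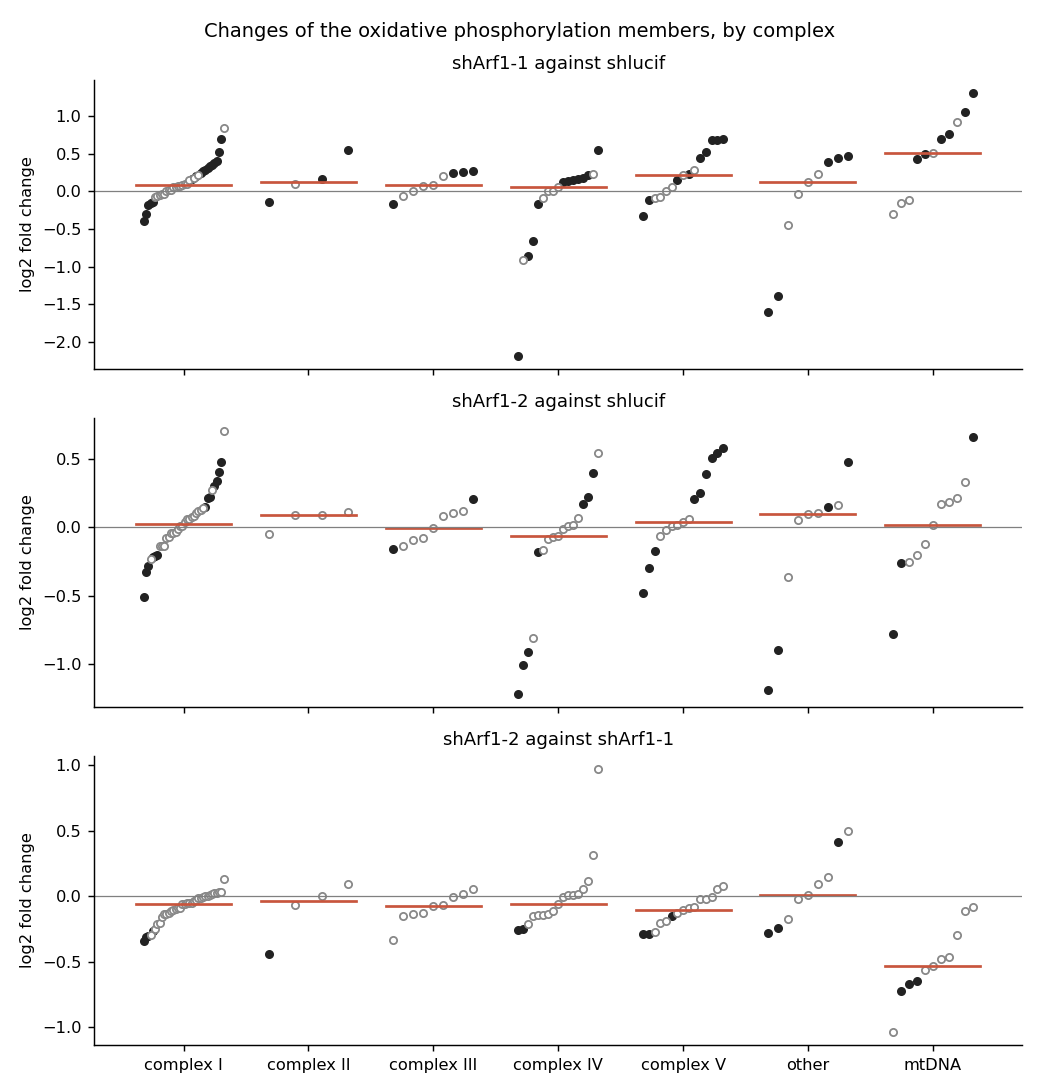
Log2 fold changes of the tested members by complex, in 3 panels for shArf1-1 and shArf1-2 against shlucif and for shArf1-2 against shArf1-1. Each point is a gene, filled when its adjusted p was under 0.05 and open when not, and the red line is the median of the group. The nuclear complexes have medians between -0.11 and 0.21, while the mtDNA genes have medians of 0.51, 0.02 and -0.53.

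All 36 nuclear members of complex I were tested. With shArf1-1, 12 rose and 5 fell, and with shArf1-2, 7 rose and 6 fell, with medians of 0.08 and 0.02. Ndufa5, an accessory subunit of the peripheral arm, was among the members that rose. It was at 29.5 to 34.5 FPKM in shlucif, 43.8 to 58.6 in shArf1-1 and 43.3 to 48.6 in shArf1-2. Both hairpin groups lay above shlucif, with log2 fold changes of 0.69 (SE 0.09, edgeR adjusted p = 8.81e-08) and 0.48 (SE 0.09, adjusted p = 3.99e-05). Ndufs1, a core subunit that carries iron-sulfur clusters, rose from 11.6 to 11.9 FPKM in shlucif to 14.9 to 16.1 and 15.2 to 15.8 FPKM (0.35 and 0.34, SE 0.06 each). Among the falls was that of the accessory subunit Ndufa6, at 79.5 to 90.5 FPKM in shlucif, 66.4 to 68.5 in shArf1-1 and 59.4 to 65.0 in shArf1-2, which gave log2 fold changes of -0.39 and -0.51 (SE 0.06 each). The calls for Ndufa5, Ndufs1 and Ndufa6 with each hairpin held in all 21 alternative analyses.

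Complex II showed a difference between the hairpins in 1 of its 4 genes. Sdhd, which encodes a membrane anchor of succinate dehydrogenase, was at 81.4, 74.7 and 75.7 FPKM in shlucif, 124, 123 and 106 FPKM in shArf1-1, and 85.9, 89.0 and 88.5 FPKM in shArf1-2. All 3 groups were apart in FPKM, with shArf1-1 highest, while on TMM-scaled counts shArf1-2 overlapped shlucif. The log2 fold change was 0.55 with shArf1-1 (SE 0.06, edgeR adjusted p = 2.17e-09) and 0.11 with shArf1-2 (SE 0.06, adjusted p = 0.127), and the difference of -0.44 (SE 0.06, adjusted p = 6.75e-06) was called in all 21 alternatives. The flavoprotein gene Sdha was at 83.3 to 85.2, 76.7 to 81.0 and 84.1 to 87.8 FPKM (-0.15, adjusted p = 0.00972, and -0.05, adjusted p = 0.364), and with library totals as scaling its fall with shArf1-1 did not pass (adjusted p = 0.0729). Sdhb, the iron-sulfur subunit, had log2 fold changes of 0.09 with both hairpins and did not pass the test, and Sdhc, the other membrane anchor, had 0.16 (adjusted p = 0.0201) and 0.09 (adjusted p = 0.182). The call for Sdhc was lost without shlucif replicate 2 (adjusted p = 0.177) or shArf1-1 replicate 1 or 2.

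In complex III, 3 of 9 nuclear members rose and 1 fell with shArf1-1, and 1 rose and 1 fell with shArf1-2. Uqcrb, a small subunit beside cytochrome b, had log2 fold changes of 0.27 (SE 0.09, edgeR adjusted p = 0.00857) and 0.20 (SE 0.09, adjusted p = 0.047), and its FPKM of 40.9 to 47.2 in shlucif overlapped the 45.1 to 60.5 in shArf1-1. Without shArf1-1 replicate 3 the call with shArf1-1 was lost (adjusted p = 0.0835), and the call with shArf1-2, made by 12 of 21 alternatives, was lost without shlucif replicate 1 or 2, shArf1-1 replicate 1, or shArf1-2 replicate 1 or 2 (up to 0.159). Uqcrc2, a core protein, was lower, at 63.8 to 68.0 FPKM in shlucif, 59.9 to 62.2 in shArf1-1 and 60.4 to 64.1 in shArf1-2 (-0.17 and -0.16), and with shArf1-2 it was not called without shlucif replicate 3 or shArf1-2 replicate 2 (adjusted p up to 0.0733) or with library totals (0.142). Set beside the mtDNA-encoded cytochrome b, whose log2 fold change with shArf1-1 was 1.05, the tested nuclear members of complex III stayed within -0.17 and 0.27.

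In complex IV, 7 of 17 tested nuclear members rose and 4 fell with shArf1-1, and 3 rose and 4 fell with shArf1-2. Cox7b2, a paralog of the small subunit Cox7b, rose with both hairpins, from 20.1 to 24.5 FPKM in shlucif to 30.9 to 38.2 in shArf1-1 and 30.3 to 31.0 in shArf1-2 (0.54 and 0.39, SE 0.12 each). Cox6b1, which faces the intermembrane space, rose from 169 to 187 FPKM in shlucif to 208 to 211 and 220 to 221 FPKM (0.17 and 0.22, SE 0.06 each). The strongest falls by the naming rule were those of tissue-restricted isoforms with few counts. Cox6a2, the muscle and heart isoform, had 24, 17 and 28 counts in shlucif, 3, 4 and 8 counts in shArf1-1 and 4, 17 and 11 counts in shArf1-2 (log2 fold changes -2.18, SE 0.49, and -1.21, SE 0.43). Cox4i2, an isoform known from lung, had 47 to 58 counts in shlucif and 23 to 37 counts in the Arf1-deficient libraries (-0.86 and -1.002, SE 0.29 each). Some of those calls needed 1 library. Cox6b1 with shArf1-1 was not called without shlucif replicate 2 (adjusted p = 0.104), Cox6a2 with shArf1-2 not without shlucif replicate 3 or shArf1-2 replicate 1 (up to 0.122), and Cox4i2 with shArf1-1 not without shArf1-1 replicate 3 (0.0817).

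The main isoforms of complex IV moved less. Cox6a1 was at 635 to 698 FPKM in shlucif, 643 to 719 in shArf1-1 and 683 to 731 in shArf1-2, with log2 fold changes of 0.00 and 0.01. Cox4i1 was at 228 to 254, 216 to 233 and 222 to 228 FPKM and fell slightly (-0.17 and -0.18, SE 0.05 each, edgeR adjusted p = 0.00449 and 0.00348). The fall with shArf1-2 did not pass with library totals (adjusted p = 0.0556), nor that with shArf1-1 without shlucif replicate 3 (0.0508). Cox7a2 rose (0.15 and 0.17, neither called without shlucif replicate 2, and with shArf1-1 also not without shlucif replicate 1 or shArf1-1 replicate 1 or 2, adjusted p up to 0.132), while its muscle isoform Cox7a1, on at most 27 counts, had 0.23 and 0.55 and did not pass. Cox8a (-0.09 and -0.07) did not pass, and its isoforms Cox8b and Cox8c had no count in any library, which allows up to 3 counts. Ndufa4 rose with shArf1-1 (0.13, adjusted p = 0.0244, up to 0.119 without shlucif replicate 2 or 3 or shArf1-1 replicate 1) and had 0.02 with shArf1-2, and its paralog Ndufa4l2, on at most 20 counts, had -0.92 and -0.80 and did not pass. Cox6b2 had at most 4 counts.

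A member outside the naming rule, singled out after its values were seen, was Cox7a2l, which encodes a factor that joins complexes III and IV into supercomplexes. It was at 129, 125 and 140 FPKM in shlucif, 86.3, 85.7 and 86.8 FPKM in shArf1-1, and 74.3, 72.0 and 74.3 FPKM in shArf1-2. The groups were apart and narrow. The log2 fold changes were -0.66 and -0.91 (SE 0.06 each, edgeR adjusted p = 1.84e-12 and 6.2e-16), and the hairpins differed by -0.25 (SE 0.06, adjusted p = 0.00303), a call made in all 21 alternatives.

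In complex V, genes of the same mature product moved in opposite directions. Atp5g1, Atp5g2 and Atp5g3 encode precursors of the same mature c subunit, the proteolipid that forms the rotating ring of the ATP synthase, and differ in the sequence that targets it to mitochondria. Atp5g2 had the highest level in shlucif, at 205, 198 and 223 FPKM, and fell to 171, 176 and 169 FPKM in shArf1-1 and 154, 159 and 159 FPKM in shArf1-2. Its log2 fold changes were -0.33 (SE 0.05, edgeR adjusted p = 1.01e-06) and -0.48 (SE 0.05, adjusted p = 6.44e-10). Atp5g3 rose from 95.8, 89.0 and 96.2 FPKM in shlucif to 154, 150 and 165 FPKM in shArf1-1 and 147, 145 and 149 FPKM in shArf1-2 (0.69, SE 0.05, adjusted p = 9.39e-14, and 0.58, SE 0.05, adjusted p = 8.25e-12). Atp5g1 rose from 12.1 to 12.98 FPKM to 17.0 to 19.7 and 18.6 to 19.1 FPKM (0.51 and 0.50, SE 0.07 each). The ratio of Atp5g2 to Atp5g3 in FPKM was 2.14 to 2.32 in shlucif, 1.03 to 1.17 in shArf1-1 and 1.05 to 1.09 in shArf1-2. Those 3 genes lie apart in the genome, at chr11:96068852-96075670, chr15:102662864-102672352 and chr2:73908447-73911326, all on the minus strand. A share of 34.7% of the windows of Atp5g2 recur in the transcript of Gm10175, so part of its counts is uncertain, while none was shared for Atp5g3 and 5.94% for Atp5g1.

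Over complex V, 7 of 15 members rose and 2 fell with shArf1-1 (median 0.21), and 6 rose and 3 fell with shArf1-2 (median 0.04). Atp5j2, the f subunit of the membrane part, was among the strongest rises, from 45.2 to 51.1 FPKM in shlucif to 78.7 to 82.2 in shArf1-1 and 72.7 to 78.4 in shArf1-2 (0.67 and 0.54, SE 0.06 each). The subunits of the catalytic head moved less, with Atp5a1 at 324 to 343, 344 to 371 and 346 to 373 FPKM (0.06 and 0.04) and Atp5b at 626 to 653, 617 to 633 and 643 to 684 FPKM (-0.09 and -0.02), neither past the test. The mtDNA-encoded mt-Atp6 did not pass either, with the limits on its counting given above.

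**Figure D4:**
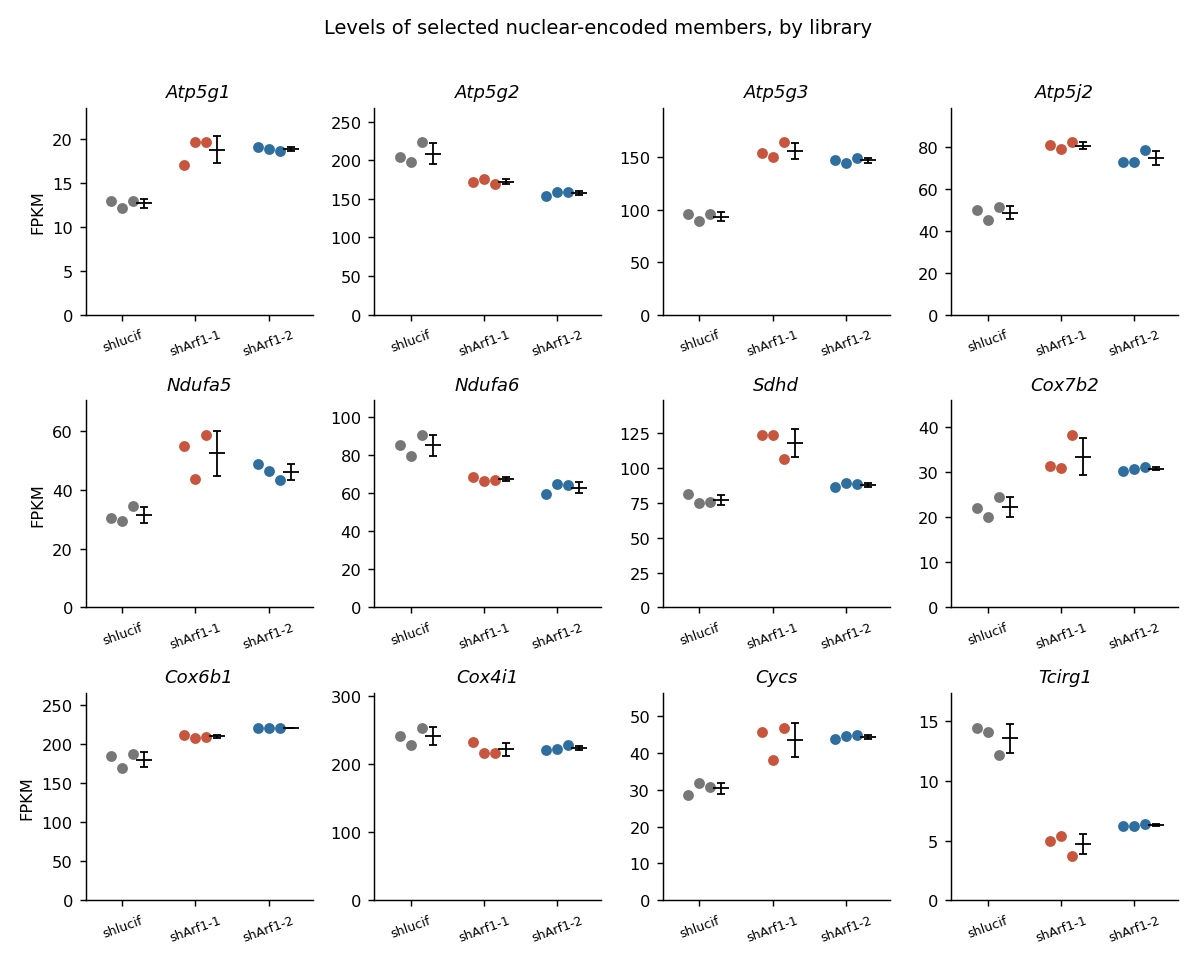
Levels of 12 nuclear members in FPKM (vertical axes from 0) in each of the 9 libraries, with the mean and SD of each group (n = 3) as a bar at its right. Atp5g1 and Atp5g3 are higher and Atp5g2 is lower in all 6 Arf1-deficient libraries than in shlucif, and Sdhd is high in the 3 shArf1-1 libraries.

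Among the remaining nuclear members, Ppa1, the cytosolic inorganic pyrophosphatase, rose from 50.4 to 54.7 FPKM in shlucif to 69.5 to 72.1 in shArf1-1 and 58.1 to 63.5 in shArf1-2 (0.39 and 0.15, SE 0.06 each), and its mitochondrial paralog Ppa2 did not pass (0.12 and 0.09). The rise of Ppa1 with shArf1-2 was lost without shlucif replicate 1 or 2 or shArf1-2 replicate 1 (adjusted p up to 0.148). Tcirg1 encodes a subunit of the vesicular proton pump that is abundant in osteoclasts and macrophages. It was at 14.4, 14.1 and 12.2 FPKM in shlucif, 4.999, 5.36 and 3.73 FPKM in shArf1-1, and 6.21, 6.24 and 6.37 FPKM in shArf1-2, which gave log2 fold changes of -1.60 and -1.19 (SE 0.10 each). It fell along with the macrophage markers listed above, whose part was not tested. Between the hairpins, where those markers were near 0 in both groups, it was higher with shArf1-2 by 0.41 (SE 0.11, edgeR adjusted p = 0.00722). Without shArf1-1 replicate 3 the adjusted p was 0.0916. Cycs, cytochrome c, is given outside the naming rule, and rose from 28.6 to 31.7 FPKM to 38.1 to 46.8 and 43.8 to 44.8 FPKM (0.47 and 0.48, SE 0.06 each). A share of 22.6% of its windows recur in other transcripts.

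Some members that every respiring cell uses were listed at very low counts. Cox17, a copper chaperone of complex IV, had 21 to 33 counts in shlucif and 7 to 25 in the Arf1-deficient libraries (-1.39, SE 0.41, edgeR adjusted p = 0.00296, and -0.90, SE 0.38, adjusted p = 0.0385), and Ndufb2 of complex I had 6 to 15 counts. Atp5o, a subunit of the stalk of complex V, had at most 63 counts. With shArf1-2, Cox17 was called by 11 of 20 alternatives and not without shlucif replicate 2 or 3 or shArf1-2 replicate 1 or 3 (up to 0.195). How the counting treated reads of those genes was not tested, and no level is read from them.

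The expression data give levels and not binding, but the promoters of the respiratory genes are known for sites of NRF-1, of GABP (also called NRF-2) and of YY1. Their core motifs were looked for on both strands in the RefSeq promoter windows (GRCm38.p6) that run from 250 bases before to 50 after each transcript start. A window was at hand for 77 of the 97 nuclear members. GCGCATGC, the NRF-1 core, was in windows of 11 members, 14.3%, against 3.05% of all 27025 genes with a window. CCGGAAG, the GABP core, was in 18 members, 23.4%, against 9.93% of all genes, and AAGATGGC, the YY1 core, was in 11 members, 14.3%, against 3.19%. The genes with a window include ones that did not pass the filter on low counts. Shares over the tested genes alone were not worked out. Those 8 stretches of windows, printed 5′ to 3′ along the gene with the motif in capitals, belong to members that lie on both sides of the comparison.
Atp5g2, NRF-1, chr15:102671072-102671099, minus: ggctccggccGCGCATGCgcagagcctt
Ndufa6, NRF-1, chr15:82354357-82354384, minus: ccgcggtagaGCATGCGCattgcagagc
Cycs, NRF-1, chr6:50566612-50566639, minus: atgctagctcGCATGCGCgcgcacaaac
Sdhb, NRF-1, chr4:140961207-140961234, plus: agcccagtggGCATGCGCcctacgggcc
Sdhd, GABP, chr9:50603879-50603905, minus: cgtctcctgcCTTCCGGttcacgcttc
Cox6b1, GABP, chr7:30626126-30626152, minus: cctctcgcagCTTCCGGccagtcggaa
Atp5j2, YY1, chr5:145191501-145191528, minus: ccaggacttcAAGATGGCgtcactcggt
Ndufs4, YY1, chr13:114388045-114388069, minus: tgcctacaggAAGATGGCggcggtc

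Among them, Atp5g2 and Ndufa6 fell and Cycs rose with both hairpins, while Sdhb did not pass. In Atp5g2 the NRF-1 core begins at position -42 from the transcript start and runs into its own reverse complement, so that both strands match. No match to any of the 3 cores was listed for Atp5g1 or Atp5g3, but whether either had a window is not given here. Of the 11 members with the NRF-1 core, 3 rose and 2 fell with shArf1-1, and 2 rose and 2 fell with shArf1-2. Of the 18 with the GABP core, 10 rose with shArf1-1 and the other 8 did not pass, and 4 rose and 1 fell with shArf1-2. Of the 11 with the YY1 core, 6 rose and 1 fell, and 4 rose and 2 fell. Over all tested nuclear members, 37.8% rose and 16.7% fell with shArf1-1, and 21.1% rose and 17.8% fell with shArf1-2. For all genes tested the shares were 33.1% and 34.4%, and 30.9% and 32.6%. No test was made of the counts by motif. A match describes letters in a window and says nothing of binding.

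The genes of the regulators themselves moved in both directions. Of 11 tested, 6 rose and 2 fell with shArf1-1, and 5 rose and 1 fell with shArf1-2. The share called was 72.7% and 54.5%, beside 67.5% and 63.4% of all genes. The share higher was 54.5% and 45.5%, beside 33.1% and 30.9% of all genes, on a short list. Nrf1, the gene of NRF-1, was at 5.65 to 6.55 FPKM in shlucif, 6.60 to 7.39 in shArf1-1 and 6.65 to 7.49 in shArf1-2 (0.17, edgeR adjusted p = 0.0449, and 0.15, adjusted p = 0.0658), and 12 of 21 alternatives did not make the call with shArf1-1, among them the fits without shlucif replicate 1 or 3, shArf1-1 replicate 1 or 2, or shArf1-2 replicate 1 (up to 0.228). Ppargc1a, the coactivator best known for inducing mitochondrial genes, had no count in any of the 9 libraries, which allows up to 3 counts in each. Perm1, a muscle factor linked to it, was the largest rise by the naming rule (1.97, SE 0.66, and 2.08, SE 0.64), on at most 19 counts, and with shArf1-1 it was not called without shlucif replicate 2 or shArf1-1 replicate 1 (adjusted p up to 0.165).

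The list of genes that copy, transcribe and process mtDNA had 31 tested members, of which 15 rose and 7 fell with shArf1-1 and 11 rose and 7 fell with shArf1-2, beside a background of 33.1% higher and 34.4% lower, and 30.9% higher and 32.6% lower. Tfam, which packages mtDNA and starts its transcription, was at 11.4 to 12.99 FPKM in shlucif, 13.4 to 16.4 in shArf1-1 and 14.3 to 14.8 in shArf1-2 (0.24, SE 0.08, edgeR adjusted p = 0.00619, and 0.18, SE 0.08, adjusted p = 0.0375). Without shlucif replicate 2 neither call was made (adjusted p = 0.0617 and 0.215), nor that with shArf1-1 without its replicate 3, nor that with shArf1-2 without any of its libraries. Polrmt, the mitochondrial RNA polymerase, was at 18.1 to 20.6, 16.5 to 19.2 and 19.1 to 20.5 FPKM and did not pass (-0.15 and -0.01). Mterf1b, a termination factor, fell by 1.49 and by 1.44 on the log2 scale, on at most 27 counts, and with shArf1-2 it was not called without shlucif replicate 3 or shArf1-2 replicate 1 (adjusted p up to 0.0683). The mitochondrial ribosomal proteins had 77 tested members. Of these, 34 rose and 8 fell with shArf1-1, and 25 rose and 10 fell with shArf1-2. The share called was 54.5% and 45.5%, below the 67.5% and 63.4% of all genes. The share higher was 44.2% and 32.5%, beside 33.1% and 30.9% of all genes. The share lower was 10.4% and 12.99%, beside 34.4% and 32.6%. Between the hairpins, 11 of those 77 were called, 14.3% beside 14.4% of all genes. All 11 were lower with shArf1-2, where 7.46% of all genes were lower and 6.98% higher.

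Assembly factors of complexes IV and I had calls in both directions, as all genes did. Of all genes, 67.5% were called with shArf1-1 (33.1% higher, 34.4% lower) and 63.4% with shArf1-2 (30.9% higher, 32.6% lower). For complex IV, 10 of 21 rose and 6 fell with shArf1-1, and 7 rose and 5 fell with shArf1-2, counting the 4 that are also members. For complex I, 5 of 15 rose and 3 fell, and 3 rose and 2 fell. The shares called were 76.2% and 57.1% for complex IV, and 53.3% and 33.3% for complex I. The short lists for the other complexes had 3 tested genes for complex II, of which 1 fell with each hairpin, 6 for complex III, of which 2 and 1 rose, and 5 for complex V, of which 1 rose with shArf1-1 and 2 rose and 1 fell with shArf1-2. Among the genes of coenzyme Q and the carriers, 4 of 14 rose and 5 fell with shArf1-1, and 3 rose and 4 fell with shArf1-2. With 64.3% and 50% called, that list was below the shares of all genes. Pdss1, which makes the side chain of coenzyme Q, rose from 2.87 to 3.25 FPKM in shlucif to 8.20 to 8.82 in shArf1-1 and 7.66 to 8.61 in shArf1-2 (1.41 and 1.33, SE 0.10 each). Coq8a, an atypical kinase needed for coenzyme Q synthesis, fell from 1.52 to 1.94 FPKM to 0.315 to 0.558 and 0.347 to 0.505 FPKM (-1.995 and -2.10, SE 0.23 each).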

How the data were processed

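The table held raw read counts per gene and FPKM for 9 libraries, both deposited by the authors, and the FPKM equal counts divided by listed length and column total. The submitters' processing notes name mm10. The aligner, counter and strand setting are not given in the sources used here. Columns named shArf1 and shArf2 were read as the hairpins shArf1-1 and shArf1-2. Counts were fitted with edgeR 4.0.16 in R 4.3.3 (TMM, filterByExpr, robust quasi-likelihood, 3 groups of 3 libraries) and adjusted over 12448 genes. All 9 replicate pairs differed by more than sampling noise (chi-square per degree of freedom 2.96 to 8.17). Scripts were tested on simulated data. Alternatives used DESeq2 1.42.0, limma 3.58.1 on log2(FPKM + 1) and log2(FPKM + 0.1), other scalings and filters, a replicate block, a gene length offset, and each library left out. Named genes were all mtDNA genes, Sdha to Sdhd, isoform pairs, Arf1, per complex the 2 largest rises and 2 largest falls called with both hairpins (ranked by the smaller change), the 3 largest hairpin differences in each direction, and by the same ranking 2 rises and 2 falls of the other lists with Ppargc1a, Nrf1, Tfam and Polrmt. A gene that the rule names is not reported here. The members and lists were chosen with earlier results of these data known. Window sharing used 100-base windows of GENCODE M21 transcripts.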

Additional observations from a re-analysis of the deposited data

Results flagged for a closer look

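For 16 members the change with shArf1-2 differed from that with shArf1-1, by the edgeR test of the difference itself over all 12448 genes. Of all genes, 14.4% did, 6.98% higher and 7.46% lower with shArf1-2. Values are shArf1-2 minus shArf1-1 on the log2 scale. Among mtDNA genes they were -0.72 for mt-Cytb, -0.67 for mt-Co2 and -0.65 for mt-Nd1. Among complex I subunits they were -0.34 for Ndufa3, -0.31 for Ndufb9, -0.30 for Ndufb8 and -0.26 for Ndufa2. In complex II the value was -0.44 for Sdhd. In complex IV it was -0.26 for Cox5a and -0.25 for Cox7a2l, and for the complex IV assembly factor Cox10 it was -0.28. In complex V the values were -0.29 for Atp5e, -0.29 for Atp5k and -0.15 for Atp5g2. Ppa1 had -0.24. Tcirg1, at 0.41, was the only member that was higher with shArf1-2. The difference of Atp5g2 was called by 8 of 21 alternative analyses, that of Ndufb9 by 9 and that of Atp5k by 10. That of Atp5g2 was lost without shArf1-1 replicate 1 or 2 or any shArf1-2 library (adjusted p up to 0.1603), that of Ndufb9 without shlucif replicate 2 or 3, shArf1-1 replicate 1 or 2, or shArf1-2 replicate 1 or 3 (up to 0.192), and that of Atp5k without shArf1-1 replicate 2 or 3 or shArf1-2 replicate 1 or 2 (up to 0.212). Other differences were called by most of the 21 alternatives and lost without single libraries. That of Atp5e was lost without shArf1-1 replicate 1 or 3 or shArf1-2 replicate 1 or 3 (adjusted p up to 0.0899), and that of Ndufa2 without shArf1-1 replicate 1 or shArf1-2 replicate 2 or with a gene length offset (up to 0.0971). That of Cox10 was lost without shArf1-1 replicate 2 or shArf1-2 replicate 1 or 2 (up to 0.113), that of Ndufa3 without shArf1-1 replicate 2 or shArf1-2 replicate 2 (up to 0.0667), that of Cox5a without shArf1-1 replicate 1 or shArf1-2 replicate 2 (up to 0.1002) and that of Tcirg1 without shArf1-1 replicate 3 (0.0916), while the losses of mt-Cytb and mt-Co2 are given above. Those of Sdhd, Ndufb8, Cox7a2l, Ppa1 and mt-Nd1 were called by all 21.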

How the results depend on the processing

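The balance of higher and lower calls over nuclear members moved with the scaling and with shlucif replicates 2 and 3, as given above. No value of a named gene that was called in the reported fit changed sign under an alternative. Cox8a with shArf1-2 was called only without shArf1-2 replicate 3 (adjusted p = 0.0479) and ran from -0.13 to 0.01 over the alternatives. Over the alternatives of named genes, 72 values passed only under the alternative, 167 lost the call, and 116 differed in sign where neither passed. For mtDNA genes, the 3 called between the hairpins became 5 with DESeq2, 5 with limma at either pseudocount and 1 with only the 6 libraries compared. Leaving out each library gave 3 to 7 mtDNA genes called with shArf1-1, 2 to 5 with shArf1-2 and 1 to 7 between the hairpins. For nuclear members it gave 40 to 50, 29 to 36 and 8 to 13, and for all genes 7894 to 8511, 7315 to 8200 and 1159 to 1977. The count of 8 came without shArf1-1 replicate 1 or shArf1-2 replicate 1 or 2, and 1159 without shArf1-1 replicate 1. The replicate block was only a number here, since same-numbered libraries had correlations of -0.0822 to 0.0941. With the replicate block, 49, 36 and 15 nuclear members and 5, 3 and 2 mtDNA genes were called, and 8431, 7939 and 1809 genes in all. Shares of mt-Co1, mt-Cytb and mt-Nd1 over 7 mtDNA genes in place of 13, an alternative added after seeing the data, kept their values within 1 SD. The share of all counts stayed within 1 SD when only genes past the filter were the denominator, and all 13 mtDNA genes listed code for protein. At this depth Cox7a1 and Cox6a2, with at most 28 counts, had standard errors of 0.36 to 0.55 on the log2 scale.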
